A study of Homo sapiens with 25 samples.

Results

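The MYC and MAX network is a set of transcription factors that compete for the same partners. Its 9 genes described here are MYC, MAX, MXD1, MXD3, MXD4, MXI1, MNT, MLX and MGA, of 63086 genes counted and 20044 protein-coding genes. They were measured by RIP-seq, in which an RNA-binding protein is captured from a cell lysate and the RNA that comes down with it is sequenced. The 9 genes were chosen by name, with their levels in each line and treatment in view, so folds and adjusted p-values of these genes are given as descriptions. No threshold of level or change was used to choose them.

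The captured protein was IGF2BP1 fused to mCherry, carried by HCT116 colorectal carcinoma cells with the genotype IGF2BP2 KO, IGF2BP3 KO and Tet-OsTIR1-PURO. The 4 lines carried the wild-type fusion (WT), the phosphomimetic mutants S181E or Y396E, or RQ, in which R167Q, R168Q, R174Q and R178Q are combined. The fusions were delivered by lentivirus under the hPGK promoter, and the cells were a population sorted within a narrow mCherry gate, so each line is 1 population. Each line was given PBS (control) or 500 µM sodium arsenite for 2 h, an oxidative stress that halts most translation, and gave 3 libraries per treatment from separately plated dishes, except RQ in arsenite with 2. Parental HCT116 cells without the fusion gave 1 library per treatment, and the labels give them neither knockout. The 23 mCherry libraries held 22246381 to 60273548 counts, the parental control library 1238013 and the parental arsenite library 18942497. IGF2BP1, the gene behind the captured protein, had no counts in either parental library, and 9 of the 11 HCT116 epithelial markers reached 1 CPM in some library, LGR5 and VIL1 being the exceptions. The 4 blood and 2 liver markers stayed under 1 CPM in every library, as did 3 of 5 stroma markers, COL1A1 and PECAM1 being the others. The stroma markers summed to 1.58 to 12.3 CPM in control and 9.01 to 13.8 CPM in arsenite libraries, and their part in the results was not tested.

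MYC is a basic helix-loop-helix leucine zipper factor that drives growth and ribosome production, and it binds DNA only as a dimer with MAX. MXD1, MXD3, MXD4, MXI1 and MNT also pair with MAX and recruit SIN3 repressor complexes, and MGA is a large MAX partner found in a Polycomb-related complex. MLX is a second hub, which pairs with the glucose-sensing factors MLXIP (MondoA) and MLXIPL (ChREBP). MYC mRNA is a classic ligand of IGF2BP1, which binds a determinant in its coding region and shields the mRNA from decay.

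MXD4 was called in all 4 comparisons of S181E and Y396E with WT described below and MNT in both of S181E, so short stretches of their mRNAs are shown. Letters often linked to IGF2BP1 were searched in the sense strand of the MANE Select transcript, which was found for 8 of the 9 genes. One search was for GGACT, a common context of m6A. The other was for CGGAC followed after 10 to 15 bases by NCAN, with A or C before and C or T after the CA, a bipartite element like that of the ACTB zipcode. The following are the 2 GGACT matches of MXD4, both in its 3′ UTR, and the 2 bipartite matches of MNT, both in its coding sequence, with the searched letters in capitals and 5′ to 3′ along the transcript.
MXD4, chr4:2249885-2249909, minus strand: tgctctggtaGGACTgtcagacgca
MXD4, chr4:2248245-2248269, minus strand: gttcccacgtGGACTgggaggcagt
MNT, chr17:2395058-2395076, minus strand: CGGACtcgaaggccaCCAT
MNT, chr17:2394047-2394066, minus strand: CGGACggcgctgcggtACAT
Positions are hg38, with exons from GENCODE v44. The MXD4 stretches lie in exon 6 and the MNT stretches in exons 2 and 4. All 8 transcripts held GGACT, as did 92.2% of the transcripts of 8686 tested genes. MXD4 had 0.52 GGACT per kilobase, MXI1 0.58 and MXD1 0.36, below the median of 0.90 over tested genes, while MYC had 1.34, MAX 1.49, MNT 1.42, MLX 1.27 and MXD3 2.81. The bipartite element occurred in MNT and MXI1, that is 2 of 8, against 11.9% of tested transcripts. Such matches describe letters and do not mark bound sites.

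In the count files MYC spans 127735434 to 127742951 on the plus strand of chromosome 8 in hg38. No other gene's exons on the same strand overlapped the exons of 8 of the 9 genes. MXD4, on the minus strand of chromosome 4 (2247432 to 2262109), shared 80 of its 3871 exon bases with the microRNA gene MIR4800. Counting used strand, so antisense genes did not add reads.

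MYC stood highest of the 9 genes in every mCherry group and in both parental libraries. Levels of different genes are compared as CPM, the count scaled to library size by the trimmed mean of M-values (TMM), per kilobase of exon. In WT control libraries MYC was at 106 CPM per kilobase, followed by MLX at 58.1, MNT at 33.4, MXD4 at 33.3, MXI1 at 33, MAX at 20.4, MGA at 13.6, MXD1 at 1.78 and MXD3 at 1.48. MNT, MXD4 and MXI1 overlapped between libraries and had no order, and neither had MXD1 and MXD3, whereas the other neighbours did not overlap. By its mean over the mCherry libraries, MYC lay above 95.7% of the genes tested, MLX above 92.1% and MGA above 42.6%. The obligate partner MAX lay above 67.5%.

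The order of the repressors moved with the mutants. In S181E control libraries MXD4 was at 14.7 CPM per kilobase, below MNT at 24.2 and above MGA at 11.7, with no overlap to the next gene on either side. In Y396E control libraries MXD4 was at 17.7 and overlapped MAX at 20. MYC and MLX kept the first and second place in all 8 mCherry groups. Without the fusion they held the same places, at 58 and 32.9 CPM per kilobase in the parental control library. In the parental arsenite library they were at 59.5 and 20.6.

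MXD1 and MXD3 did not reach the filter on low values, a CPM above 10 in most mCherry libraries, which the other 7 genes passed along with others to make 8734 genes tested. Their tests come from a wider set of 13417 genes. Their libraries also varied more: WT control libraries had 6.91, 3.83 and 19.3 CPM of MXD1, the highest being replicate 3. The same library had the lowest MXD3 of its group, at 2.19 CPM beside 5.97 and 4.63. Replicate 3 was also lowest for MXD3 in the control libraries of S181E at 5 CPM, Y396E at 4.27 CPM and RQ at 2.88 CPM.

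**Figure D1:**
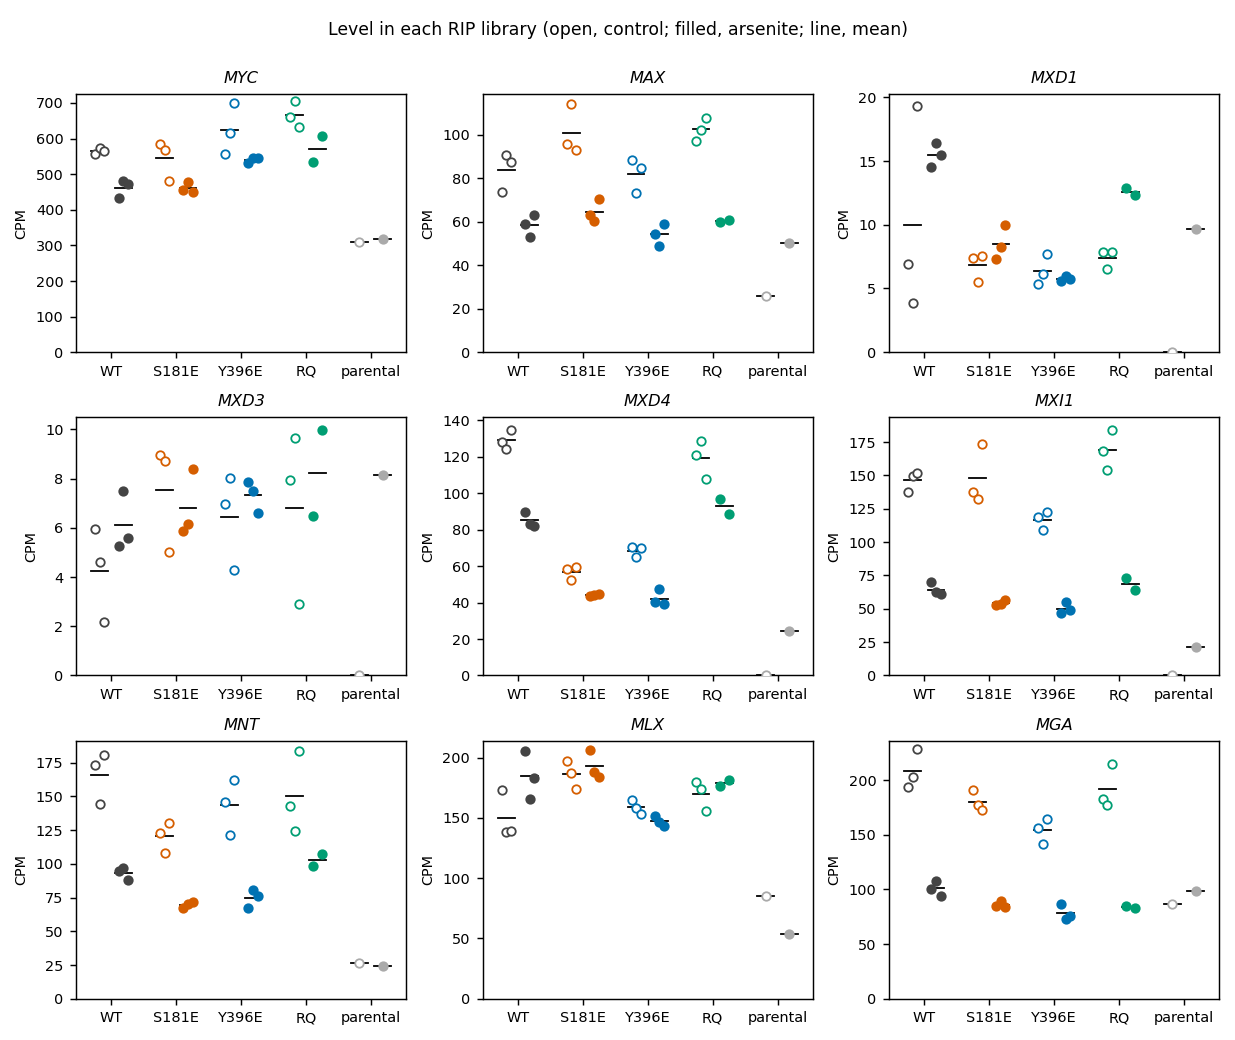
CPM (vertical axis, from 0) of the 9 genes in each of the 25 libraries, by line, with open points for control, filled points for arsenite and a line at the group mean. MXD4 is low in S181E and Y396E under both treatments, and MXI1, MNT, MGA and MAX are lower in arsenite in all 4 lines.

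How far these RNAs rose above RNA recovered without the fusion was read from the parental libraries, with no replicate and no test. MYC had 310 CPM in the parental control library and 318 CPM in the parental arsenite library. The WT group means were 1.82-fold and 1.45-fold above these, and the folds of the other lines ran from 1.75 to 2.15 in control and from 1.45 to 1.79 in arsenite. With total counts in place of TMM the WT folds were 0.79 and 0.88, so whether MYC lay above or below the parental level depends on the scaling. None of the 8 groups reached 4-fold for MYC, the study's threshold over the parental RIP. The study also required enrichment over total RNA, which was not examined here. Under TMM, with a parental floor of 3 counts, the median fold of all genes tested was 3.39 to 3.52 in control. It was 1.12 to 1.16 in arsenite. MYC lay above 39.3 to 42.8% of these genes in control and above 61.9 to 72.5% in arsenite.

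After arsenite the repressors MNT, MXD4 and MXI1, and MLX, stood further above the parental library than MYC. WT MNT was 3.87-fold, MXD4 3.49-fold, MLX 3.47-fold and MXI1 3.01-fold above it. MNT in RQ, at 4.28-fold, was the only arsenite group mean of the 9 genes at 4-fold or more, while 6.14 to 9.18% of tested genes reached this in each line. It was 2.76-fold with total counts and 3.92-fold over the parental control library, so the threshold is not reached under either. With total counts the WT folds were 2.35 for MNT, 2.12 for MXD4, 2.11 for MLX and 1.83 for MXI1. MGA and MXD3 lay at or near the parental level, from 0.75-fold to 1.02-fold over the 4 lines, and below it with total counts, from 0.46-fold to 0.65-fold. MAX was at 1.08-fold to 1.28-fold, and at 0.71-fold to 0.87-fold with total counts. MXD4 in S181E was 1.81-fold and in Y396E 1.73-fold above the parental library, against 3.80-fold in RQ. In the parental control library 3572 of the tested genes (40.9%) had no count, MXD4 and MXI1 among them, and only 86 had 1 to 3. MXD1 and MXD3, outside the tested genes, also had none, so no fold over that library is given for these 4 genes. MNT, with 39 counts there, was 4.57-fold to 6.30-fold above it over the 4 lines, and 2.22-fold to 2.86-fold with total counts. In control 47.6 to 48.2% of tested genes reached 4-fold. MAX was at 3.20-fold to 3.99-fold, MLX at 1.77-fold to 2.19-fold and MGA at 1.77-fold to 2.39-fold. With total counts these were 1.41 to 1.92, 0.76 to 1.07 and 0.93 to 1.03.

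**Figure D2:**
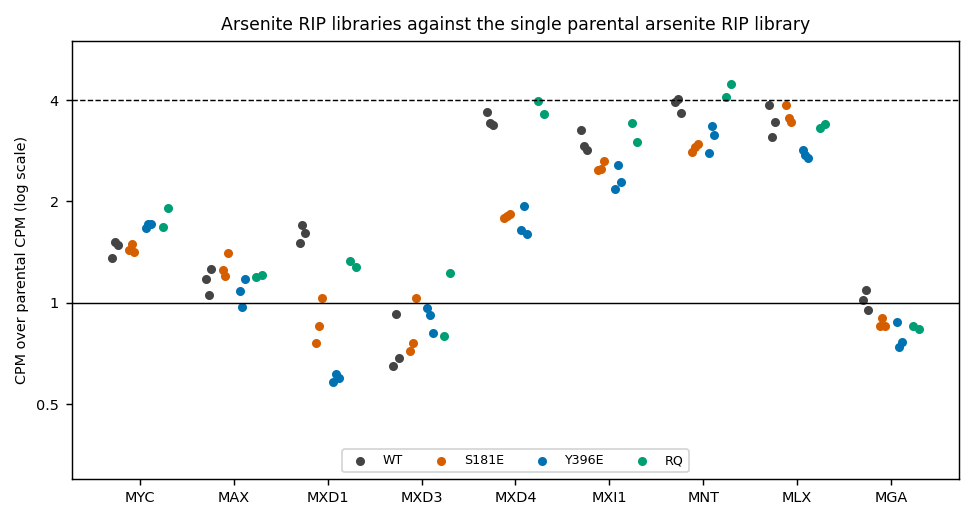
Ratio of the CPM of each arsenite library to the CPM of the single parental arsenite library (vertical axis, log scale), with a full line at 1 and a broken line at 4. Under TMM scaling MYC lies between the lines in all 11 libraries, and MXD4 of S181E and Y396E sits below MXD4 of WT and RQ.

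The first comparison asked which RNAs came down more or less with a mutant than with WT IGF2BP1. In the text a gene is called when its adjusted p in edgeR's quasi-likelihood test is under 0.05 and its level changed by more than 20%. Overlap between libraries is given for named genes only, and the share of all genes without overlap was not counted. In control cells 20.8% of all genes tested were called for S181E, 28.9% for Y396E and 6.34% for RQ. In arsenite the shares were 7.53%, 32.5% and 0.504%. Of the calls for Y396E 55.9% were higher in control and 40.4% in arsenite, and with total counts in place of TMM 88.3% and 75.3% were, so the direction of the bulk depends on the scaling. For S181E the shares went from 61.6% to 86.5% in control and from 29.2% to 75.4% in arsenite, and for RQ from 55.4% to 82.1% and from 56.8% to 76.7%. A lower RIP level can come from fewer copies in the cell or from less of the RNA being bound, and bulk libraries cannot tell fewer cells from less RNA per cell.

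MXD4, a MAX partner linked to differentiation and to growth arrest, was lower in S181E and Y396E under both treatments. WT control libraries had 128, 124 and 134.9 CPM, S181E 58.3, 52.6 and 59.5 CPM, Y396E 70.4, 65.0 and 69.98 CPM, and RQ 120.8, 129 and 108 CPM. All S181E and Y396E libraries were below all WT libraries, whereas RQ overlapped WT. The log2 fold change was -1.17 ± 0.10 (SE) for S181E and -0.90 ± 0.10 for Y396E, with adjusted p of 3.4e-08 and 4.9e-07 in edgeR. For RQ it was -0.11 ± 0.10, with an adjusted p of 0.53.

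After arsenite the direction was the same. WT arsenite libraries had 89.8, 83.4 and 82.1 CPM of MXD4, S181E 43.7, 44.3 and 44.8 CPM, Y396E 40.1, 47.5 and 39.1 CPM and RQ 96.9 and 88.8 CPM. S181E and Y396E again lay wholly below WT. The log2 fold changes were -0.95 ± 0.10 for S181E, -0.98 ± 0.10 for Y396E and 0.13 ± 0.11 for RQ, with adjusted p of 5.7e-07, 1.1e-07 and 0.76 in edgeR. The 4 calls of MXD4 against WT held under each of the alternatives run, every single library left out among them. Since both mutants were set against the same WT libraries, their values are not independent.

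MNT, which pairs with MAX in most proliferating cells, was lower in S181E. WT control libraries had 173, 144 and 180.6 CPM and S181E 123, 108 and 130.4 CPM, with no overlap. After arsenite WT had 94.8, 97.2 and 87.97 CPM and S181E 67.5, 69.96 and 71.4 CPM. The log2 fold changes were -0.45 ± 0.13 in control and -0.43 ± 0.13 in arsenite, and the adjusted p in edgeR was 0.015 and 0.045. The control call was lost without S181E control replicate 2, at -0.38, or WT control replicate 3, at -0.39, and with a model of these 2 groups alone, at -0.48. The arsenite call was lost with total counts, at -0.27, and whichever of the 6 libraries was left out, with log2 fold changes from -0.47 to -0.40. In the Y396E libraries MNT was not called, with -0.19 ± 0.13 in control and -0.29 ± 0.13 in arsenite.

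MXI1, another SIN3-recruiting MAX partner, and MGA were lower in Y396E. MXI1 in WT control libraries was at 137, 149.7 and 152 CPM and in Y396E at 119, 109 and 123 CPM. The log2 fold change of MXI1 was -0.31 ± 0.11 in control and -0.33 ± 0.11 in arsenite, with adjusted p of 0.035 and 0.022 in edgeR. MGA in WT control libraries was at 194, 203 and 228 CPM and in Y396E at 157, 142 and 165 CPM. Its log2 fold change was -0.42 ± 0.10 in control and -0.34 ± 0.10 in arsenite, with adjusted p of 0.0024 and 0.01. Y396E and WT libraries did not overlap in any of these 4 comparisons, with the share over all genes not counted. With total counts as the scaling, which raises the median of all genes by 0.27 in control and 0.22 in arsenite for Y396E, the 4 log2 fold changes were between -0.14 and -0.04 and none was called, so these decreases are relative to the bulk of the genes. MXI1 in control was not called without WT control replicate 2 or 3 or Y396E control replicate 1 or 2 (-0.33 to -0.27). MXI1 in arsenite was not called without WT arsenite replicate 1 or Y396E arsenite replicate 1 or 3 (-0.32 to -0.27). MGA in arsenite was not called without replicate 2 of WT or of Y396E (-0.29 for each). In S181E and RQ neither gene was called. MGA was at -0.20 ± 0.10 in control and -0.24 ± 0.10 in arsenite for S181E, and at -0.12 ± 0.10 and -0.26 ± 0.11 for RQ. MXI1 was at 0.02 ± 0.11 and -0.25 ± 0.11 for S181E, and at 0.21 ± 0.11 and 0.10 ± 0.12 for RQ.

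MXD1, a MAX partner induced during differentiation, was low in Y396E after arsenite. WT arsenite libraries had 14.6, 16.4 and 15.5 CPM, S181E 7.31, 8.25 and 9.98 CPM, Y396E 5.61, 5.95 and 5.77 CPM and RQ 12.9 and 12.3 CPM. None of the 3 mutants overlapped WT. In the wider set, where 20.2% of genes were called for Y396E in arsenite, the log2 fold change was -1.39 ± 0.34 with an adjusted p of 0.004 in edgeR. For S181E it was -0.87 ± 0.33 with an adjusted p of 0.17, and for RQ -0.29 ± 0.37. The Y396E group mean of MXD1 was 0.60-fold and that of WT 1.61-fold the parental arsenite level, and with total counts these were 0.43-fold and 0.97-fold. In control cells no mutant was called for MXD1 and leaving out WT control replicate 3 turned the log2 fold change of S181E from -0.53 to 0.33 and that of Y396E from -0.62 to 0.24. Without WT control replicate 2 both were called, at -0.91 and -1.0. MXD3 was not called in any comparison, with S181E at 0.81 ± 0.38 in control as the largest value.

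MYC itself was not called in any of the 6 comparisons with WT. WT control libraries had 557.6, 574 and 565 CPM, S181E 584.5, 569 and 481 CPM, Y396E 557, 615.5 and 699 CPM, and RQ 661, 705 and 632 CPM. The RQ libraries lay above the WT libraries and the other mutants overlapped them. The log2 fold changes in control were -0.05 ± 0.09 for S181E, 0.16 ± 0.09 for Y396E and 0.24 ± 0.09 for RQ, with adjusted p of 0.77, 0.21 and 0.13 in edgeR. 

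After arsenite MYC was at 433.5, 481 and 471 CPM in WT, at 457, 477 and 449 CPM in S181E, at 531, 546 and 545 CPM in Y396E and at 534 and 608 CPM in RQ. Y396E and RQ lay wholly above WT, and S181E did not. The log2 fold changes were -0.01 ± 0.09 for S181E, 0.26 ± 0.09 for Y396E and 0.31 ± 0.10 for RQ. The adjusted p for Y396E was 0.035 in edgeR, but the change stayed just under 20%, and that for RQ was 0.26. The mRNA of the captured protein moved the same way: IGF2BP1 was higher than in WT by 0.41 ± 0.12 in Y396E and by 1.02 ± 0.13 in RQ after arsenite, and by 0.04 ± 0.12 in S181E. In control, where MYC was not called, IGF2BP1 was called in Y396E at 0.50 ± 0.12 and in RQ at 0.74 ± 0.12. IGF2BP1 was at 0.01 ± 0.12 in S181E in control. Its part in the MYC values was not tested.

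MAX, the partner that MYC and its antagonists share, was called in none of the 6 comparisons. In control its log2 fold change was 0.28 ± 0.11 for S181E, -0.01 ± 0.11 for Y396E and 0.29 ± 0.11 for RQ, and the S181E and RQ libraries lay above those of WT. The adjusted p was 0.076 and 0.12 for these lines in edgeR. With the replicate number as a block, S181E in control was called at 0.28 with an adjusted p of 0.042. With total counts both were called, S181E at 0.45 and RQ at 0.38.

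The MLX arm went different ways. MLX was higher in S181E control libraries (197, 187 and 174 CPM) than in WT (173, 139 and 139 CPM), at 0.32 ± 0.10 with an adjusted p of 0.028. It was lower in Y396E arsenite libraries (152, 147 and 144 CPM) than in WT (206, 165.5 and 183 CPM), at -0.30 ± 0.10 with an adjusted p of 0.027 in edgeR. The S181E call was lost without S181E control replicate 1 or 2 or WT control replicate 2 or 3, at 0.26 to 0.32. It was also lost without a filter on low counts, at 0.32, with a model of these 2 groups alone, at 0.29, and with TMM factors from genes no higher than in at least 1 parental library, at 0.28. The Y396E call was lost without WT arsenite replicate 1 or 3 or Y396E arsenite replicate 2 or 3, at -0.31 to -0.21, with total counts, at -0.08, and without a filter on low counts, at -0.30.

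MLXIPL, the partner of MLX that turns on glycolytic and lipogenic genes, was lower in both phosphomimetic mutants. After arsenite WT had 136, 143 and 153 CPM, S181E 68.4, 68.2 and 70.4 CPM, and Y396E 65.3, 73.5 and 84.8 CPM, with no overlap with WT. The log2 fold changes were -1.06 ± 0.15 and -0.92 ± 0.15, and in control -0.57 ± 0.15 and -0.64 ± 0.15, all 4 called. For RQ they were -0.09 ± 0.16 and -0.02 ± 0.15. MLXIP, the other MLX partner, was called in none of the 6 comparisons, between -0.37 and -0.01. MYCL was measured at 2.02 to 11.6 CPM in the mCherry libraries and called in none, and MYCN, the neuronal homolog, had no counts in any library.

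Counted over the 9 genes, S181E had 1 higher (MLX) and 2 lower (MXD4, MNT) in control and 2 lower (MXD4, MNT) in arsenite. Y396E had 3 lower in control (MXD4, MXI1, MGA) and 5 lower in arsenite (MXD1, MXD4, MXI1, MLX, MGA), and RQ had 0 in both, where 1906 genes in control and 842 in arsenite had an unadjusted p under 0.05 in edgeR, MYC among them in both. The medians of the 9 log2 fold changes were -0.05 and -0.24 for S181E, -0.19 and -0.30 for Y396E and 0.18 and 0.10 for RQ, in control and arsenite. The medians over all genes tested lay between -0.01 and 0.05. The shares called among the 9 genes are to be read beside the shares called among all genes. In control and arsenite these were 20.8% and 7.53% for S181E, 28.9% and 32.5% for Y396E and 6.34% and 0.504% for RQ. For Y396E in control 3 of 9 is close to the 28.9% of all genes.

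**Figure D3:**
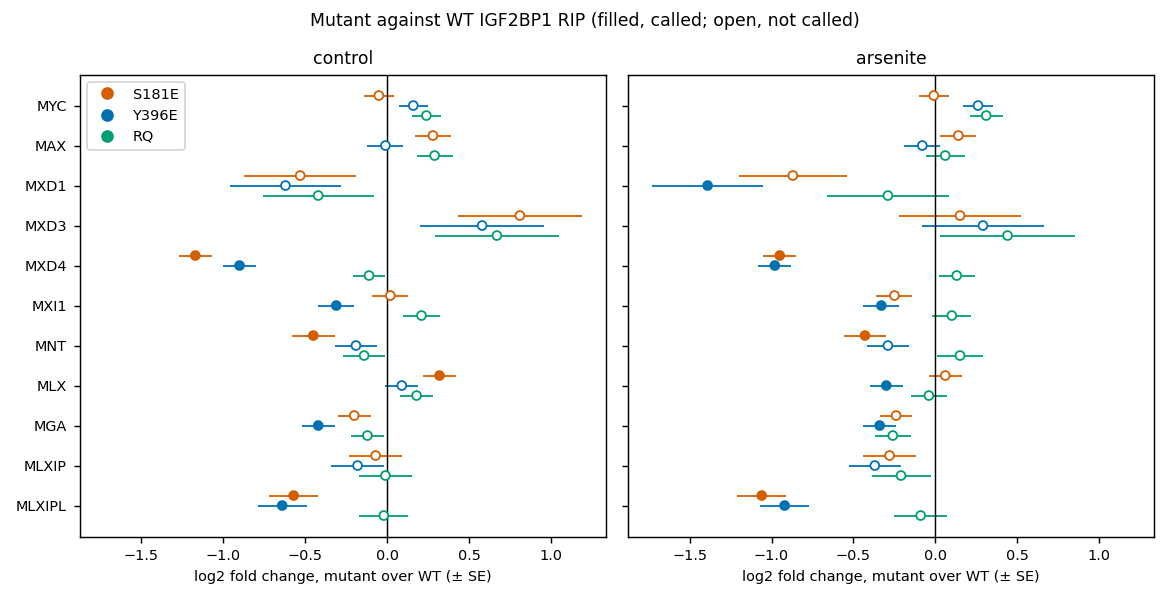
Log2 fold change of each mutant over WT (horizontal axis, with SE) for the 9 genes and the MLX partners MLXIP and MLXIPL, in control (left) and arsenite (right), filled where called. MXD4 and MLXIPL are lower in S181E and Y396E and near 0 in RQ, and MYC is at or above 0 except in S181E.

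The second comparison asked how arsenite changed the RNA recovered with each line. It was the larger of the 2: of all genes tested 67.3% were called in WT, 67.8% in S181E, 65.1% in Y396E and 64.7% in RQ, in both directions. Within the network MAX, MXD4, MXI1, MNT and MGA fell in all 4 lines. MYC fell in WT and S181E, and MLX rose in WT.

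MXI1 and MGA had the largest decreases. MXI1 went from 137, 149.7 and 152 CPM in WT control libraries to 69.7, 62.6 and 60.9 CPM in arsenite. Its log2 fold change was -1.19 ± 0.11 in WT, -1.47 ± 0.11 in S181E, -1.22 ± 0.11 in Y396E and -1.30 ± 0.13 in RQ. MGA went from 194, 203 and 228 CPM to 100.5, 108 and 94.1 CPM in WT, and its log2 fold changes lay between -1.20 and -0.98 over the 4 lines. After arsenite MGA in WT was at the level of the parental arsenite library, 98.8 CPM, under TMM scaling.

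MNT fell by 0.84 ± 0.13 on the log2 scale in WT and by 0.55 ± 0.15 in RQ. MAX fell by 0.53 ± 0.11 in WT and by 0.77 ± 0.13 in RQ, and S181E and Y396E lay between at -0.67 ± 0.11 and -0.60 ± 0.11. MAX was at 73.7, 90.7 and 87.2 CPM in WT control libraries and at 59.1, 52.8 and 63.0 CPM in arsenite. MXD4 fell by 0.61 ± 0.10 in WT, 0.39 ± 0.10 in S181E, 0.69 ± 0.10 in Y396E and 0.37 ± 0.11 in RQ. For these 5 genes control and arsenite libraries did not overlap in any line. The share of all genes without overlap was not counted, in a comparison that called 64.7 to 67.8% of them. The largest adjusted p of the 5 genes in edgeR was 0.0052, for MXD4 in RQ. That call alone of the 20 was lost on leaving out a library, RQ arsenite replicate 2, at -0.30, which leaves 1 RQ arsenite library with a spread taken from the other groups.

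MYC fell less than these 5 genes. Its log2 fold change was -0.30 ± 0.09 in WT and -0.26 ± 0.09 in S181E, with adjusted p of 0.0057 and 0.014 in edgeR, and -0.20 ± 0.09 in Y396E and -0.23 ± 0.10 in RQ, with adjusted p of 0.055 and 0.059. Control and arsenite libraries did not overlap in any of the 4 lines, with the share over all genes not counted. The S181E call lies next to the limit of 20% and was lost when S181E arsenite replicate 3 or S181E control replicate 1 or 2 was left out, with values from -0.24 to -0.21. In Y396E MYC was called on leaving out Y396E control replicate 1, at -0.27, and in RQ on leaving out RQ control replicate 3, at -0.27, or RQ arsenite replicate 2, at -0.32, where 1 RQ arsenite library is left and is assumed to vary like the other groups. PVT1, a long noncoding RNA that starts downstream of MYC on chromosome 8, was at 232 ± 22.5 CPM (SD, n = 3) in WT control and 115 ± 6.14 CPM in WT arsenite libraries, and was not part of the test, which covered protein-coding genes.

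MLX and MLXIPL differed from the MAX group, while MLXIP fell as MAX did. MLX was at 173, 139 and 139 CPM in WT control and 206, 165.5 and 183 CPM in WT arsenite libraries, which overlap, at 0.29 ± 0.10 with an adjusted p of 0.015. This call was lost without WT arsenite replicate 1, at 0.20, or WT control replicate 2 or 3, at 0.23 each. In S181E, Y396E and RQ MLX was at 0.03 ± 0.10, -0.10 ± 0.10 and 0.07 ± 0.11 and not called. MLXIPL rose in all 4 lines, by 1.66 ± 0.15 in WT, 1.17 ± 0.15 in S181E, 1.38 ± 0.15 in Y396E and 1.59 ± 0.16 in RQ, and MLXIP fell in all 4, between -0.80 and -0.59. MXD1 and MXD3 were called in no line, and leaving out WT control replicate 3 gave MXD1 1.49 in place of 0.63 in WT, called.

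The median log2 fold change of the 9 genes was -0.53 in WT, -0.39 in S181E, -0.60 in Y396E and -0.37 in RQ, against medians of all genes between -0.02 and 0.03. The number called was 7, 6, 5 and 5 of 9, all lower except MLX in WT. Of all genes 67.3%, 67.8%, 65.1% and 64.7% were called, so the counts in S181E, Y396E and RQ are no higher than these shares. With TMM factors taken from the 4355 genes whose mean over the mCherry libraries was no higher than in at least 1 parental library (background-gene TMM), the median of all genes dropped by 0.27 to 0.28 (log2), and the share of calls that were higher in arsenite went from 52.7% to 35.9% in WT. MYC was then called in all 4 lines, between -0.58 and -0.47, MLX was called in Y396E at -0.37, and MLX in WT was at 0.01, so these directions and sizes are relative to the scaling.

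**Figure D4:**
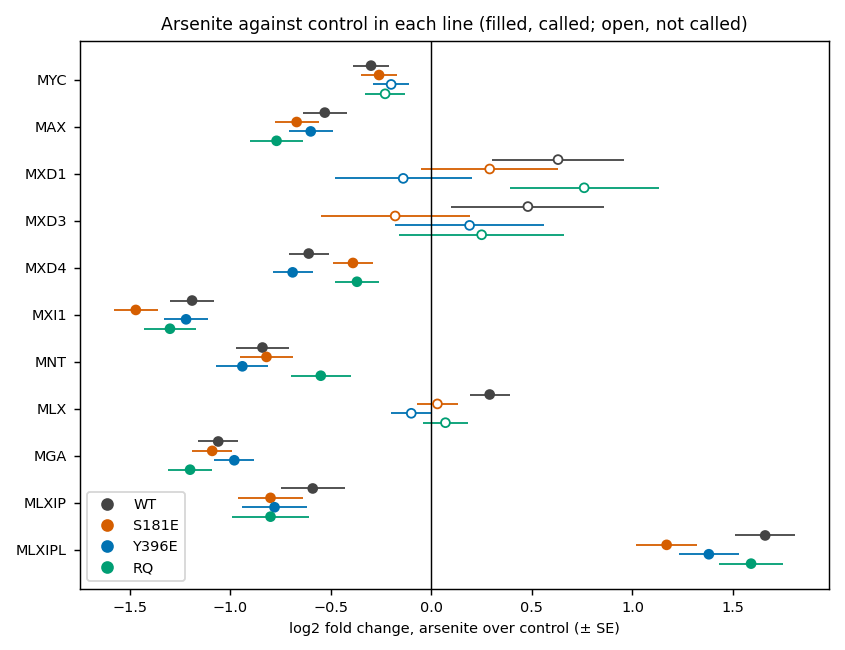
Log2 fold change of arsenite over control (horizontal axis, with SE) in each of the 4 lines for the 9 genes, MLXIP and MLXIPL, filled where called. MAX, MXD4, MXI1, MNT, MGA and MLXIP lie below 0 and MLXIPL above 0 in all 4 lines.

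Whether a mutant changed the arsenite response was tested by the interaction of line and treatment. None of the 9 genes was called, where 0.389% of all genes were called for S181E, 2.85% for Y396E and 0.0687% for RQ, and at an unadjusted p under 0.05 in edgeR there were 1128, 1569 and 844 genes. For MYC the interactions were 0.04 ± 0.13, 0.10 ± 0.13 and 0.08 ± 0.14. The lowest of the genes that passed the filter was MLX in Y396E at -0.39 ± 0.14, with an unadjusted p of 0.011 and an adjusted p of 0.14. With the replicate number as a block it was called at -0.39, with an adjusted p of 0.024, and on leaving out WT control replicate 1 it was called at -0.51. MXD1 in Y396E was at -0.77 ± 0.47 in the wider set, and at -1.63 and called without WT control replicate 3.

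Genes around the network were taken from lists, and their calls are under TMM scaling unless stated. Of 17 tested cofactors, Y396E had 6 higher and 2 lower in control and 5 higher and 4 lower in arsenite, where 28.9% and 32.5% of all genes were called in either direction. NCOR1, a corepressor scaffold, was at -0.52 ± 0.15 and -0.93 ± 0.15, and BPTF, a chromatin remodeller subunit, at -0.89 ± 0.10 and -0.87 ± 0.10. RUVBL1, an ATPase that MYC recruits, was at 0.70 ± 0.16 in control. For S181E 3 were higher and 1 lower in control and 2 lower in arsenite, beside 20.8% and 7.53% of all genes. In arsenite BPTF was at -0.61 ± 0.10 and NCOR1 at -0.55 ± 0.15 for S181E. For RQ 1 was higher and 2 lower in control and 0 were called in arsenite, beside 6.34% and 0.504% of all genes. After arsenite 10 cofactors were higher in each line, in a comparison that called 64.7 to 67.8% of all genes, with the acetyltransferase scaffold TRRAP at 1.25 ± 0.12 in WT, and 2 or 3 were lower, with BPTF at -1.26 ± 0.10 in WT. With total counts Y396E had 9 higher and 1 lower in control and 10 higher and 2 lower in arsenite. Of all 8734 genes 3668 and 2749 were then higher.

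Partners of MGA in its Polycomb-related complex gave 13 tested genes. S181E had 5 higher and 1 lower in control and 1 lower in arsenite, where 20.8% and 7.53% of all genes were called. Y396E, with 28.9% and 32.5% of all genes called, had 4 higher and 3 lower in control and 2 higher and 5 lower in arsenite, in arsenite PCGF6, TFDP2, RYBP, YAF2 and RNF2 being the lower ones. With total counts the Y396E counts were 7 higher and 2 lower in control and 6 higher and 4 lower in arsenite. Of all 8734 genes 3668 and 2749 were then higher. RQ had 1 higher in control (HDAC2) and 0 called in arsenite, beside 6.34% and 0.504% of all genes. Against control, arsenite lowered E2F6, TFDP1, TFDP2 and RYBP in all 4 lines and raised HDAC1 and HDAC2 in all 4. That comparison called 64.7 to 67.8% of all genes. The median log2 fold change of the 13 over control was between -0.36 and -0.06, against -0.02 to 0.03 over all genes. With background-gene TMM it was between -0.63 and -0.34, against -0.29 to -0.24 over all genes. MGA, which fell in all 4 lines, is not among the 13.

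Of 24 tested genes that MYC is known to activate, S181E had 6 higher and 0 lower in control and 0 called in arsenite. Of all genes 20.8% and 7.53% were called. Y396E had 5 higher and 1 lower in control and 6 higher and 1 lower in arsenite, no more than the 28.9% and 32.5% of all genes. The lower one in Y396E was the mitochondrial chaperone HSPD1, at -0.97 ± 0.13 and -0.87 ± 0.13. RQ had 1 higher in control, the cap-binding factor EIF4E at 0.40 ± 0.10, and 0 in arsenite, beside 6.34% and 0.504% of all genes. Arsenite raised 11 to 15 of them and lowered 2 or 3 in each line, where 64.7 to 67.8% of all genes were called. CAD, the enzyme that starts pyrimidine synthesis, was at 1.42 ± 0.17 in WT, while EIF4E was at -1.27 ± 0.10 and the polyamine enzyme SRM at -1.14 ± 0.09. The median of the 24 was 0.35 in WT, against 0.03 over all genes. With background-gene TMM it was 0.07 in WT, against -0.24 over all genes, and -0.04 in RQ, against -0.27. For Y396E the counts moved with the scaling, to 14 higher and 1 lower in control with total counts (17 and 1 in arsenite). With background-gene TMM they moved to 2 higher and 2 lower in control. Of all 8734 genes 3668 were higher with total counts in control, 2749 in arsenite, and 738 in control with background-gene TMM. In S181E arsenite libraries 8 were higher with total counts, where 867 of all genes were.

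Regulators of MYC protein stability gave 10 tested genes. S181E had 3 higher in control (CIP2A, SKP2, SET) and 1 in arsenite (SKP2), where 20.8% and 7.53% of all genes were called. Y396E had the same 3 higher in control, and in arsenite SKP2 higher and GSK3B and FBXW7 lower. The shares over all genes were 28.9% and 32.5%. RQ had 0 called under either treatment. SKP2, a subunit of a ubiquitin ligase for MYC, kept 2 of its 4 calls with background-gene TMM. Against control, arsenite lowered FBXW7, the F-box protein that marks MYC for degradation, and GSK3B, the kinase that primes this, in all 4 lines. HUWE1 and AURKA rose in all 4, in a comparison that called 64.7 to 67.8% of all genes. Of the 2 tested targets of MLX dimers, HK2 and PFKFB3, both were higher in Y396E under both treatments (with background-gene TMM HK2 in neither and PFKFB3 in 1), and arsenite raised HK2 and lowered PFKFB3 in all 4 lines. TXNIP and ARRDC4, the other 2 of that list, missed the filter. Among the proteins that bind the MYC coding region with IGF2BP1, DHX9 and HNRNPU rose with arsenite in all 4 lines, and YBX1 was lower than in WT in all 3 mutants in control, in 2 of them with total counts.

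The genes most like MYC across the 23 mCherry libraries were MYL9, FKBP8, HPCAL1, TMEM222 and RPL3, with a Pearson r of log2(CPM + 1) from 0.857 to 0.880. Over the 8 group means the r was 0.904 to 0.958, within the control libraries 0.614 to 0.785 and within the arsenite libraries 0.821 to 0.928. Of the network, MNT was nearest at 0.631 and MLX farthest at -0.398, but within the control libraries MNT was at 0.075 and MLX at -0.055, and within the arsenite libraries at 0.302 and -0.620. For MXD4, a gene taken up after its values were seen, the r with other genes of the network was 0.752 for MNT, 0.632 for MXI1 and 0.427 for MYC, and 0.613, 0.459 and 0.302 within the control libraries. These libraries share lines, treatments and scaling, and the r values describe them.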

How the data were processed

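RIP-seq libraries of HCT116 cells were analysed, 23 with mCherry-IGF2BP1 and 2 parental. Per the labels and methods, the authors aligned single-end reads to hg38 with STAR 2.7.11b and counted them on exons per gene with featureCounts (Subread 2.0.6). The deposited values are these raw counts, not normalized. Symbols and biotypes came from GENCODE v44 by Ensembl identifier. RNA-Seq libraries were not used here, so levels are not divided by RNA abundance.

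Counts of protein-coding genes were scaled by TMM and tested with edgeR 4.0.16 (quasi-likelihood, 8 groups in 1 model, Benjamini-Hochberg over the 8734 genes with over 10 CPM in most mCherry libraries) in R 4.3.3. The call needed an adjusted p under 0.05 and a change over 20%. MXD1, MXD3 and MYCL come from a fit on 13417 genes. Printed CPM use TMM over all 25 libraries. Total counts per mCherry library ranged from 22246381 to 60273548. Error covers the spread between dishes of 1 population per line. The fit was tested on simulated data. DESeq2 1.42.0, other scalings, filters and left-out libraries were alternatives.

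The genes and lists were chosen with earlier results of these data known. Genes were named by rule: all 9 network genes, IGF2BP1, called genes of each list (up to 2 per direction where values are given) and the 5 genes most like MYC. MXD4 likeness, PVT1 and the lists of genes changed in all lines were added after values were seen. Replicate numbers were taken to pair only S181E and WT in arsenite, where same-numbered libraries correlated at 0.283, 0.295 and 0.392. In the other comparisons these correlations ran from -0.122 to 0.448 and were lowest for replicate 1, as for S181E and WT in control at -0.015, 0.221 and 0.304. Spread shared by replicate number was not modelled in the main test, and the replicate block is given as an alternative. Neither labels nor methods describe a shared batch.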

Additional observations from a re-analysis of the deposited data

How the results depend on the processing

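Total counts moved the medians of all genes to 0.32 for Y396E and 0.22 for S181E in control. MYC in Y396E was then called at 0.43 in control and 0.48 in arsenite, and in RQ in control at 0.33, while its decrease in arsenite was no longer called, at -0.26 in WT and -0.23 in S181E. The number called was 1 for S181E in arsenite, 3 for Y396E in arsenite and 3 for RQ in control. MYC over the parental library was 0.79 in control and 0.88 in arsenite, 1.78 in control against the other parental library, and 1.85 and 1.36 in single WT libraries. With TMM factors from genes no higher than in at least 1 parental library, MYC fell at -0.47 in Y396E and -0.50 in RQ. For S181E in arsenite 1 gene was then called, as with DESeq2 size factors and filterByExpr. Over all genes 127 were higher and 485 lower for S181E in arsenite with these factors, and 207 and 452 with DESeq2 size factors. MYC in S181E with arsenite was -0.26 with DESeq2 size factors and -0.25 with only the groups compared, neither called. MYC in Y396E in arsenite was called at 0.27 by DESeq2 and at 0.26 by the adjusted p alone. With only the groups compared, MYC in RQ in arsenite was called at 0.31, which made 1 gene, and 1 was called for S181E in control. Without a filter 3 were called for Y396E in arsenite. In each of these the cause was not tested. Counts over all genes under filterByExpr, without a filter and with only the groups compared are not given.

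Leaving out 1 library gave 1 to 3 called genes for S181E in control, 1 for S181E in arsenite, 3 to 5 for Y396E in arsenite and 0 to 1 for the Y396E interaction. The matching counts over all genes are not given. MYC ranged from 0.22 to 0.29 for Y396E in arsenite, and for arsenite against control from -0.34 to -0.21 in S181E, -0.27 to -0.11 in Y396E and -0.32 to -0.14 in RQ. The replicate block made 1 call in the Y396E interaction, MLX at -0.39, and added MAX in S181E control at 0.28, MNT in Y396E arsenite at -0.30, and MXD1 in arsenite at 0.75 in WT and 0.90 in RQ. For the paired S181E and WT arsenite libraries it changed no call. No called change turned its sign under any alternative run. MXD1 and MXD3 were low in WT control libraries, at 2.19 to 19.3 CPM.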
